A study of Mus musculus with 23 samples.

Results

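The cholesterol genes described here are 33 listed genes of mouse cholesterol synthesis, its control by sterol regulatory element-binding proteins (SREBPs), and cholesterol transport, among 38293 genes in the count files. They were chosen by name: 18 encode enzymes of synthesis, 7 encode regulators, 4 act in uptake and intracellular transport, and 4 act in efflux and disposal. Ensembl identifiers were matched to symbols with a GRCm38 annotation, and all 33 genes were found and passed the filter on low counts, which 16087 genes passed.

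The study measured RNA by sequencing in primary astrocyte cultures and asked how these cells respond to the thyroid hormone T3. The 6 groups were 24 h T3 (n = 3), 24 h control (n = 4), 6 h CHX+T3 (n = 4), 6 h CHX (n = 4), 6 h T3 (n = 4) and 6 h control (n = 4). Every culture came from the neocortex of postnatal day 3 mice of a hybrid background that the labels give as BALB/c+C57BL/6 with 129/OLa+129/Sv+, grown for 7 days and stated to be more than 95% astrocytes. Every culture also spent 24 h in medium with 0.1% serum deprived of thyroid hormone before treatment. T3 was given at 10 nM, and CHX at 8 µg/ml from 30 min before T3. The labels give CHX only as an abbreviation; in cell culture it usually stands for cycloheximide, a blocker of protein synthesis. The labels do not tie replicates to separate cultures or litters. A p-value here therefore measures the spread among the sequenced libraries alone, and part or all of that spread may be technical.

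Cells make cholesterol from acetyl-CoA through mevalonate and squalene. The SREBPs are made in the endoplasmic reticulum membrane, where Insig proteins hold them with their escort Scap while sterol is plentiful. When sterol falls, they move to the Golgi, are cut, and raise genes of synthesis and uptake. When oxysterols accumulate, the liver X receptors raise genes that export cholesterol. In the brain, astrocytes make much of the cholesterol and pass it to neurons on particles that carry apolipoprotein E.

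Promoters of 4 genes are shown as examples, picked for the traits named here. Of the 27 members with a window, Hmgcs1 was the 1 that held an exact match to the core of the sterol regulatory element. Variants of that core were not searched. Hsd17b7 and Msmo1 were among the synthesis genes that rose most under CHX, and Nr1h2 fell most among the regulators. Sequences are from RefSeq (GRCm38.p6), 250 bases before to 50 after the annotated start, 5′ to 3′ on the gene's strand. Capitals mark the core TCACNCCAC and CCAAT boxes on either strand (ATTGG is CCAAT on the other strand). The windows lie at chr13:119690101-119690400 (plus strand), chr1:169969156-169969455 (minus), chr8:64733529-64733828 (minus) and chr7:44553916-44554215 (minus).
Hmgcs1: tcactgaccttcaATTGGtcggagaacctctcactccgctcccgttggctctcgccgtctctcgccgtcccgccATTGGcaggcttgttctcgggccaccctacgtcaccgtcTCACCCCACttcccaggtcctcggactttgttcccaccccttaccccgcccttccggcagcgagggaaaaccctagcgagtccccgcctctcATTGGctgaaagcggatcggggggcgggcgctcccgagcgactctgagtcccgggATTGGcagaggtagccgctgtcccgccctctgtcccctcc
Hsd17b7: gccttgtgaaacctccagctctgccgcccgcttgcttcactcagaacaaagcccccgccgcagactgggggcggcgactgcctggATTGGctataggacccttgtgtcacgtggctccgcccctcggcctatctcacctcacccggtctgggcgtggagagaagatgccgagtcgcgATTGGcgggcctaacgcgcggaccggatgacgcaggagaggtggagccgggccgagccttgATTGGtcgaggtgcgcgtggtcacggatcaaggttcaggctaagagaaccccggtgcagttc
Msmo1: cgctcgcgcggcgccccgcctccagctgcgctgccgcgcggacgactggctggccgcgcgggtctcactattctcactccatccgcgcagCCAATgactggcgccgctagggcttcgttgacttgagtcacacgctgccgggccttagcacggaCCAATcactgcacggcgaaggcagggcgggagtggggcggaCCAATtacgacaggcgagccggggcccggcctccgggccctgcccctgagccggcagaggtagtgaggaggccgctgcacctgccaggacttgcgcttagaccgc
Nr1h2: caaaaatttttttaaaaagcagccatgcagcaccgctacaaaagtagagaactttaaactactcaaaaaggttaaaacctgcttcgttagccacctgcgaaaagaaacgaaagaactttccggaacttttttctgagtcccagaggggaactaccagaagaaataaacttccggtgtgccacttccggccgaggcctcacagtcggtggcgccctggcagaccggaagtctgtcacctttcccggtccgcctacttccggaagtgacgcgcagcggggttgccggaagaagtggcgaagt

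RefSeq windows were matched for 27 of the 33 members, 38 windows in all. No window was matched for Sqle, Fdft1, Fdps, Stard4, Npc1 and Abcg1, so their promoters were not searched. TCACNCCAC was present in 1 of these windows (2.632%), that of Hmgcs1, and in 408 of 32851 windows of all genes (1.242%). CCAAT, the letters bound by NF-Y, a factor that works beside SREBPs, was present in 14 of 18 windows of synthesis genes (77.78%), against 37.41% of all windows. GGGCGG, the Sp1 box, was present in 15 of those 18 (83.33%), against 35.66% of all. Windows of enzymes that rose under CHX held from 0 (Pmvk) to 5 (Mvk) CCAAT boxes. Those of enzymes that fell held from 0 (Acat2) to 4 (Nsdhl). A tie between boxes and direction was not tested. The exact direct repeat of AGGTCA with 4 bases of any kind between the copies can be bound by thyroid hormone and liver X receptors. It was present in 0 member windows and in 5 windows of all genes. All 4 motifs were searched on both strands as exact matches, and no printed match overlapped another motif. Variants of these letters were not searched, so a window without a match may still hold a variant site. The matches are descriptions of letters in these windows and say nothing about binding.

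The T3 labels held: Hr, a classic T3-responsive gene, averaged 205 CPM (gene counts scaled to a common library size) at 6 h T3 and 10.8 CPM in 6 h controls, 233 CPM at 24 h T3 and 17.6 CPM in 24 h controls, and 113 CPM in CHX+T3 and 15.7 CPM in CHX. Klf9 also rose in all 3 T3 comparisons. Dio3 rose at 6 h and 24 h and was not called under CHX (adjusted p = 0.203). Libraries held 13843040 to 22997873 gene counts. Summed markers ranged over all libraries from 13109 to 22021 CPM for 10 astrocyte genes, 42.0 to 149 CPM for 13 microglial genes, 533 to 1095 CPM for 10 genes of the oligodendrocyte lineage, 438 to 571 CPM for 11 neuronal genes and 1562 to 3290.2 CPM for 12 vascular and meningeal genes. Mog, Mag, Slc17a7, Nefl, Pecam1 and Cldn5 were too low to be tested. The astrocyte sum was 13109 to 15442 CPM in the CHX groups and 19535 to 22021 CPM in the other 6 h groups. Replicate 1 of 24 h T3 stood apart from the other 2, with 724 CPM of Abca1 against 1214 and 1185 CPM. Of all counts in its file, 42.3% were marked as not uniquely aligned, against 37.5% and 37.3%. File names place all 6 h controls, all 6 h T3 and replicates 1 to 3 of 6 h CHX on lane 5, replicate 3 of 24 h T3 on lane 7, and every other library on lane 6.

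Levels between genes are compared per length, as RPKM (CPM per kilobase of exon). In 6 h controls Apoe stood far above the rest at 2375.3 ± 101.6 RPKM (SD, n = 4, as for the levels that follow). Abca1, the cholesterol exporter that loads apolipoproteins, followed with 166 ± 13.5 RPKM, and Hmgcs1, the synthase that makes HMG-CoA, with 119 ± 9.72 RPKM. Srebf2, which encodes the SREBP that mainly drives synthesis, had 53.3 ± 3.37 RPKM and Srebf1, whose products also drive fatty acid synthesis, 42.9 ± 3.14 RPKM. Of the 2 liver X receptors, Nr1h2 (the β form) had 30.9 ± 1.24 RPKM, while Nr1h3 (the α form) had 0.592 ± 0.0761 RPKM, the lowest mean of the 33. Idi1, the isopentenyl diphosphate isomerase, and Mylip, a ubiquitin ligase that marks lipoprotein receptors for breakdown, were also low, at 0.670 ± 0.138 and 0.811 ± 0.204 RPKM. These 3 lowest levels lay within each other's spread. Read sharing limits some levels: 25.3% of the 50-base stretches of Idi1, 26.2% of Fdps and 11.6% of Hmgcs1 also occur in other transcripts.

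After T3 edgeR called few of these genes, and the changes were small. At 6 h, 2 of 33 members were called by edgeR at an adjusted p under 0.05, the rule for a call unless another is named, 1 higher and 1 lower, while 3.77% of all genes tested were called, 2.61% higher and 1.16% lower. At 24 h, 2 of 33 members were called, 1 higher and 1 lower, against 7.09% of all genes, 4.41% higher and 2.68% lower. Under CHX at 6 h, 1 of 33 was called, higher, against 1.29% of all genes, 1.16% higher and 0.131% lower. Groups did not overlap for 5 members at 6 h, 3 higher and 2 lower, where 11.5% of all genes did not, 6.71% higher and 4.81% lower. They did not overlap for 2 members at 24 h, 0 higher and 2 lower, where 15.1% of all genes did not, 8.13% higher and 7.02% lower. Under CHX they did not overlap for 5 members, 3 higher and 2 lower, where 12.3% of all genes did not, 7.16% higher and 5.17% lower. The 6 h and 24 h calls had no gene in common, and no member moved by 1.5-fold in any of the 3 comparisons. At an unadjusted p under 0.05 in edgeR there were 10 members at 6 h, 8 higher and 2 lower. There were 5 at 24 h, 3 higher and 2 lower, and 9 under CHX, 6 higher and 3 lower. The share of all genes at that unadjusted threshold is not given here. Leaving out 1 library at a time gave 0 to 4 calls at 6 h, 1 to 3 at 24 h and 0 to 2 under CHX. Over all genes the same fits called 349 to 676 at 6 h, 810 to 1486 at 24 h and 138 to 252 under CHX. The count of members at 6 h was 4 without T3 replicate 2 and 0 without control replicate 3 or T3 replicate 3 or 4. At 24 h it was 3 without T3 replicate 1 or 3 and 1 without T3 replicate 2 or control replicate 2. All CHX+T3 libraries and replicate 4 of CHX were on lane 6 and the other CHX libraries on lane 5, so T3 under CHX was compared largely across lanes. The plot of T3 effects sets the 3 comparisons side by side.

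**Figure D1:**
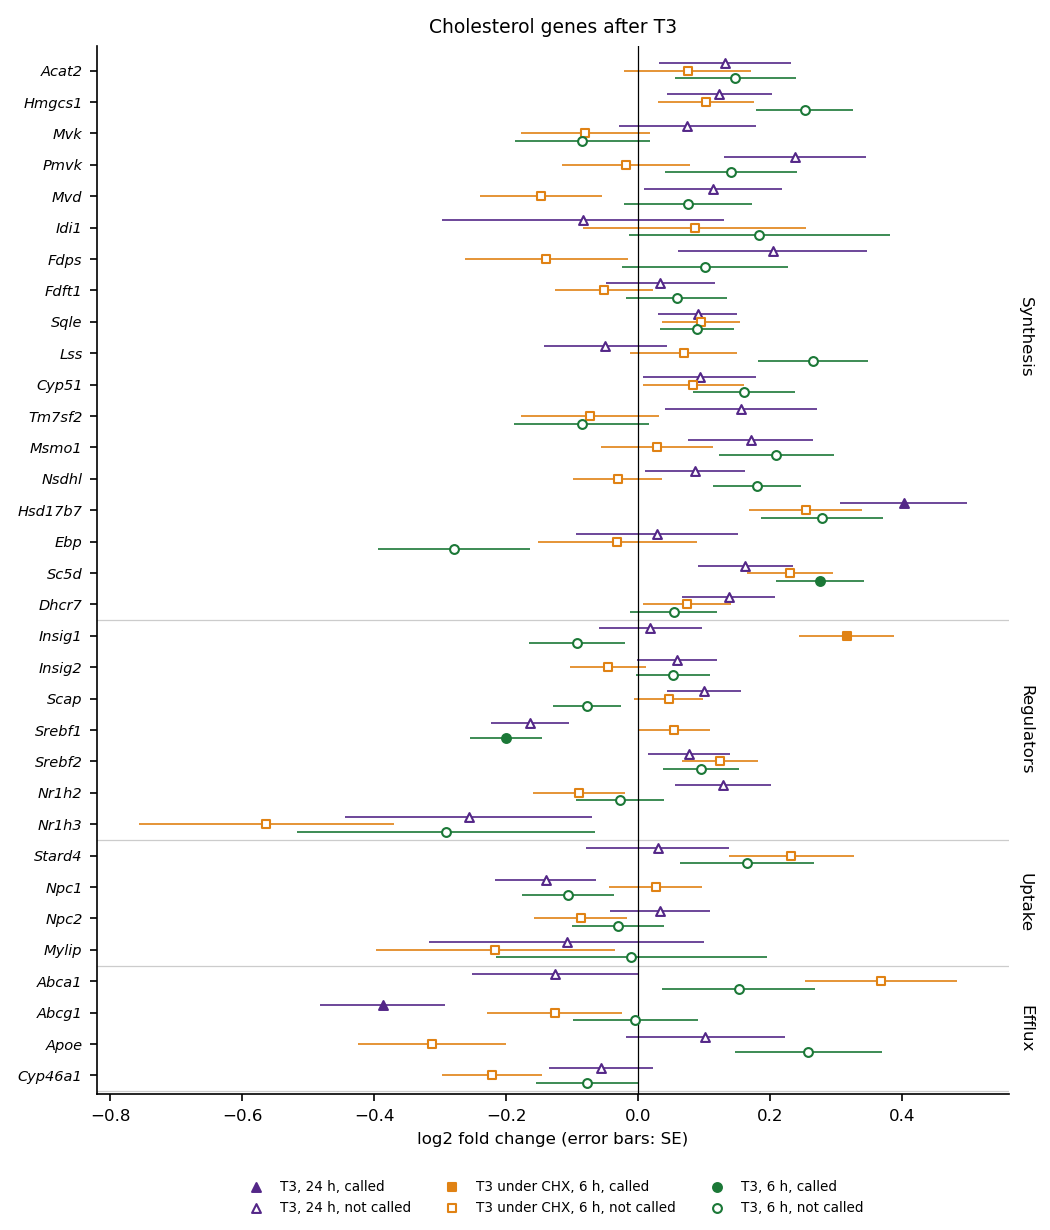
Log2 fold changes of the 33 members (x axis, error bars SE) after T3 at 24 h, under CHX at 6 h and at 6 h, each against its own group without T3, by role from top to bottom. Filled symbols are called at an adjusted p under 0.05: 2 at 24 h, 1 under CHX and 2 at 6 h, and all values lie between -0.56 and 0.40.

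Among the enzymes of synthesis, Sc5d, the desaturase that acts late in the sterol branch (chromosome 9, 42251595 to 42264256), rose at 6 h. It had 70.8, 72.2, 75.3 and 78.3 CPM in the 6 h T3 libraries, against 59.0, 61.2, 57.2 and 67.9 CPM in 6 h controls. Every T3 library was above every control. The log2 fold change was 0.28 ± 0.066 (SE), adjusted p = 0.0166, and the adjusted p was 0.0518 to 0.0798 when 6 h control replicate 1 or 3, or 6 h T3 replicate 3 or 4, was left out. For Sc5d the change was 0.16 ± 0.072 at 24 h (adjusted p = 0.195) and 0.23 ± 0.065 under CHX (adjusted p = 0.0902), neither called by edgeR. Under CHX Sc5d was called by DESeq2 (0.24, adjusted p = 0.0266), with the compared groups only (0.0401), with length and GC trends removed (0.047) and without CHX+T3 replicate 2 (0.28, 0.041).

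Hsd17b7, a reductase of the steps that strip methyl groups from lanosterol (chromosome 1, 169949535 to 169969241), rose at 24 h. It had 32.4, 42.2 and 41.9 CPM at 24 h T3, against 29.6, 26.6, 34.4 and 27.2 CPM in 24 h controls. The groups overlapped, since T3 replicate 1 lay within the controls. The log2 fold change was 0.40 ± 0.097 (SE), adjusted p = 0.00933. It did not pass without 24 h control replicate 2 (adjusted p = 0.0604), without 24 h T3 replicate 2 (0.0590), or when only those 7 libraries were fitted (0.169). At 6 h, a value picked because the groups stood apart, Hsd17b7 had 33.5, 28.9, 32.1 and 32.3 CPM with T3, against 26.0, 25.6, 25.3 and 27.9 CPM in controls, 2 groups that did not overlap, with a change of 0.28 ± 0.092 that was not called (adjusted p = 0.096). That change was called with a block by replicate letter (0.0382), the compared groups only (0.0356) and without both 24 h T3 replicate 1 and CHX replicate 4 (0.0334).

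The main edgeR fit called no other enzyme at 6 h or 24 h, and DESeq2 called 1 more at 6 h, Hmgcs1. Lss was called higher at 6 h with replicate blocks by number (0.26, adjusted p = 0.0498) or letter (0.0377) and with the compared groups only (0.046). It was also called without both 24 h T3 replicate 1 and CHX replicate 4 (0.0208), and without 6 h T3 replicate 2 (0.0283). The median log2 change of the 18 enzymes was 0.14 at 6 h, with 15 of 18 positive, and 0.12 at 24 h, with 16 of 18 positive, while the median of all genes tested was 0.0028 and 0.0041. At an unadjusted p under 0.05 in edgeR there were 8 enzymes at 6 h, 7 higher and 1 lower, and 3 at 24 h, 3 higher and 0 lower. Under CHX the median was 0.049, with 10 of 18 positive, and edgeR called 0 enzymes, while 2 had an unadjusted p under 0.05 and DESeq2 called 1. Hmgcs1, picked after its values were seen as the enzyme nearest to a call at 6 h, had 663, 583, 661 and 695 CPM with T3, against 576, 526, 493 and 590.0 CPM in controls, and a log2 change of 0.25 ± 0.074 (SE), adjusted p = 0.054 in edgeR, against 0.24 and an adjusted p of 0.0342 in DESeq2. In all, 8 of 17 alternatives called Hmgcs1. Its groups overlapped through T3 replicate 2. Ebp, a sterol isomerase, ran the other way at 6 h, with 12.7, 15.4, 15.6 and 13.4 CPM with T3, against 17.6, 16.2, 16.4 and 19.2 CPM in controls, and a change of -0.28 ± 0.12 that was not called (adjusted p = 0.204).

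Among the regulators, Srebf1 fell at 6 h. It had 217, 218, 205 and 199.6 CPM with T3, against 229.6, 236, 268 and 232 CPM in controls, and the groups did not overlap. The log2 fold change was -0.20 ± 0.055 (SE), adjusted p = 0.0373, and 10 of 17 alternative analyses called it, with adjusted p-values from 0.0029 to 0.151. Leaving out 6 h control replicate 2 or 3, or 6 h T3 replicate 1, 3 or 4, ended the Srebf1 call (0.0506 to 0.151), with changes of -0.15 to -0.22. At 24 h Srebf1 had 289.6, 273 and 254 CPM with T3, against 310.2, 313, 290.3 and 306 CPM in controls, again without overlap, and the change of -0.16 ± 0.059 was not called by edgeR (adjusted p = 0.0978). It was called by DESeq2 (-0.18, adjusted p = 0.035), with length and GC trends removed (0.0383) and without 24 h T3 replicate 1 (-0.21, 0.0411). Srebf2 was not called in any of the 3 T3 comparisons. Its changes were 0.095 ± 0.058 at 6 h, 0.077 ± 0.063 at 24 h and 0.12 ± 0.058 under CHX. Nr1h3 was lower with T3 in all 3, 1.22-fold at 6 h, 1.19-fold at 24 h and 1.48-fold under CHX. The last was the largest T3 change of the 33 members. Nr1h3 was low throughout, its groups overlapped, and edgeR did not call it in these comparisons.

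Insig1, which holds SREBPs in the endoplasmic reticulum and is itself an SREBP target (chromosome 5, 28071363 to 28078662), was the 1 member that edgeR called after T3 under CHX; DESeq2 also called Sc5d. It had 88.9, 83.8, 91.1 and 98.9 CPM in CHX+T3, against 71.2, 71.1, 83.5 and 65.7 CPM in CHX, with no overlap. The log2 fold change was 0.32 ± 0.071 (SE), adjusted p = 0.0196. Replicate 4 of CHX, the lowest of its group, is also the 1 CHX library on the lane of the CHX+T3 libraries. Without it the change was 0.27 and not called (adjusted p = 0.118), and 11 of 17 alternatives called it. The Insig1 call was also lost without CHX replicate 1 (0.0716) or 2 (0.0694) and without CHX+T3 replicate 3 (0.0577) or 4 (0.0981). Without CHX, Insig1 had 63.7, 58.4, 60.1 and 58.0 CPM with T3, against 63.2, 64.8, 62.1 and 66.3 CPM in controls, a change of -0.093 ± 0.073. The difference between the 2 T3 effects was 0.41 ± 0.10 (SE), adjusted p = 0.0471, the 1 call that edgeR made among 33 members (DESeq2 made 3), where 1.22% of all genes were called, 0.584% with a higher T3 effect under CHX and 0.634% with a lower one. It passed in 9 of 25 alternatives, and leaving out any 1 library of those groups other than CHX replicate 3 ended the call, with adjusted p-values of 0.0539 to 0.123.

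**Figure D2:**
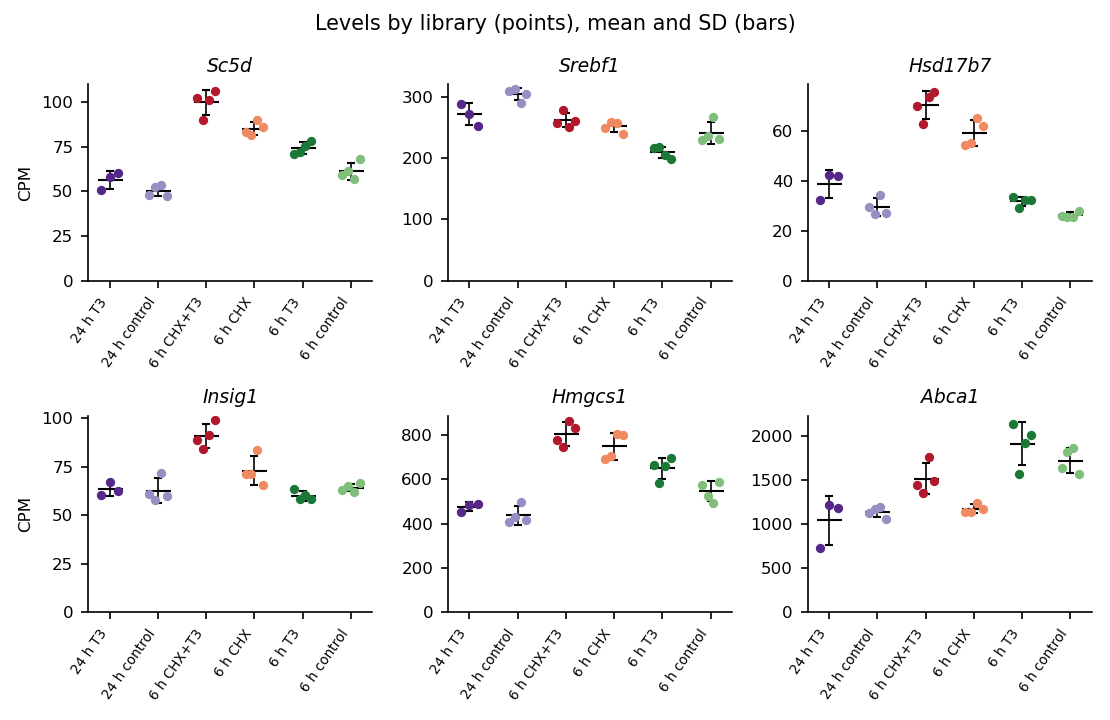
CPM of Sc5d, Srebf1, Hsd17b7, Insig1, Hmgcs1 and Abca1 in each library (points), with group mean and SD (bars), in the 6 groups; every y axis starts at 0. T3 and control points of Sc5d (from 70.8 to 78.3 and from 57.2 to 67.9 CPM at 6 h) do not overlap, nor do the Insig1 points of CHX+T3 (83.8 to 98.9) and CHX (65.7 to 83.5).

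In the main fits no uptake or transport gene was called after T3: edgeR called 0 of 4 in each comparison, as did DESeq2, and at an unadjusted p under 0.05 there was 1, under CHX. That gene was Stard4, a soluble sterol carrier, with 94.9, 90.6, 102 and 98.7 CPM in CHX+T3, against 77.9, 79.1, 88.0 and 84.3 CPM in CHX. Its groups did not overlap, and its log2 change was 0.23 ± 0.095 (SE), adjusted p = 0.301. With the compared groups only in the edgeR fit Stard4 was called under CHX (0.23, adjusted p = 0.0316). With length and GC trends removed Npc1 was called lower after T3 at 6 h (-0.18, adjusted p = 0.00548). Npc1, the lysosomal cholesterol exporter, had the smallest adjusted p of the 4 at 24 h, 0.305, with 126, 169 and 160.4 CPM with T3, against 164, 176, 165 and 165 CPM in controls. Replicate 1 of 24 h T3 was the low library.

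Among efflux genes Abcg1, an exporter to lipoprotein particles (chromosome 17, 31057675 to 31117988), fell at 24 h. It had 15.7, 18.3 and 17.1 CPM with T3, against 20.9, 20.4, 23.9 and 24.3 CPM in controls, with no overlap. The log2 fold change was -0.39 ± 0.095 (SE), adjusted p = 0.0106, and it did not pass when only those 7 libraries were fitted (0.0929). At 6 h Abcg1 had 12.0, 12.4, 10.5 and 11.4 CPM with T3, against 10.8, 12.7, 11.8 and 11.1 CPM in controls, a change of -0.0043 ± 0.095. The difference between the 24 h and 6 h effects was -0.38 ± 0.13 and was not called (adjusted p = 0.18). For all 33 members edgeR called 0 such differences, where 0.839% of all genes were called, 0.541% higher and 0.298% lower. At an unadjusted p under 0.05 there were 3, and DESeq2 called 0.

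Apoe had 5728, 6694, 6077 and 5787 CPM at 6 h T3, against 5247, 4986, 4815 and 5266 CPM in controls, without overlap, and the change of 0.26 ± 0.11 was not called (adjusted p = 0.233). Apoe at 6 h was called with length and GC trends removed (0.0301) and with the compared groups only (0.0207). The same held without both 24 h T3 replicate 1 and CHX replicate 4 (0.0319). Under CHX Apoe ran the other way, with 3059.7, 2856, 2721 and 3252 CPM in CHX+T3, against 3556, 3366, 3359 and 4481 CPM in CHX, a change of -0.31 ± 0.11 (adjusted p = 0.223), called with lane as a covariate (-0.59, 0.0199). The difference between these effects was -0.57 ± 0.16 (SE), adjusted p = 0.0662, just outside the threshold, and 8 of 25 alternatives called it. Microglia also express Apoe: the summed microglial markers were 42.0 to 49.4 CPM in CHX+T3 and 49.2 to 73.3 CPM in CHX, with negative fold changes for 13 of 13 markers and no call, and 85.4 to 97.4 CPM in 6 h T3 and 70.2 to 89.4 CPM in 6 h controls. Their part in the Apoe values was not tested. Abca1 had 1440.5, 1356, 1761 and 1491 CPM in CHX+T3, against 1136, 1136, 1243 and 1173 CPM in CHX, without overlap, and its change of 0.37 ± 0.12 was not called (adjusted p = 0.148). That change was called with length and GC trends removed (0.0148) and with the compared groups only (0.00743). It was also called without both 24 h T3 replicate 1 and CHX replicate 4 (0.0233).

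CHX for 6 h moved nearly the whole set, in both directions. Without T3, 31 of 33 members were called, 16 higher and 15 lower, where 67.5% of all genes were called, 37% higher and 30.6% lower. With T3, 31 were called, again 16 higher and 15 lower, where 67.3% of all genes were called, 36.3% higher and 31% lower. Groups did not overlap for 29 members without T3, 14 higher and 15 lower, where 62.7% of all genes did not, 34.3% higher and 28.4% lower. With T3 they did not overlap for 28 members, 15 higher and 13 lower, where 63.6% of all genes did not, 34.4% higher and 29.2% lower. The 2 comparisons share no library, and 30 members were called in both, each in the same direction, 15 higher and 15 lower. Cyp46a1 was called without T3 and not with T3, and Srebf1 with T3 and not without. edgeR did not call the difference between the CHX effects for either, and DESeq2 called it for Srebf1 (adjusted p = 0.022). The plot of CHX effects shows both comparisons.

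**Figure D3:**
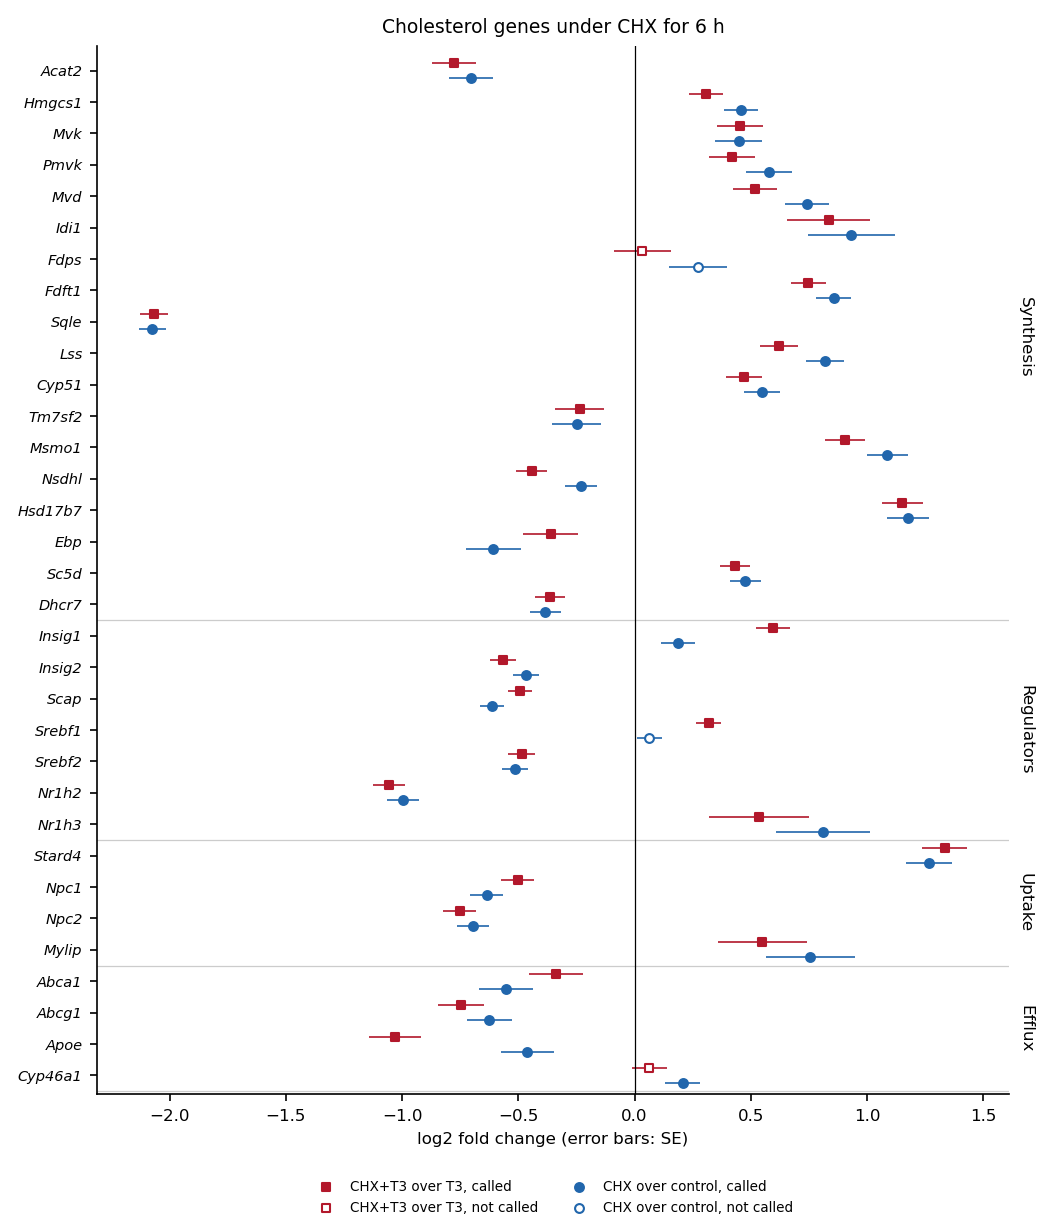
Log2 fold changes of the 33 members (x axis, error bars SE) for CHX+T3 over T3 and CHX over control at 6 h, by role from top to bottom; filled symbols are called at an adjusted p under 0.05. Synthesis genes lie on both sides of 0, from -2.07 for Sqle to 1.18 for Hsd17b7, and the 2 comparisons have the same sign for all 33.

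Of the 18 enzymes of synthesis, 11 rose and 6 fell under CHX without T3, and 11 rose and 6 fell with T3; the median log2 change was 0.47 and 0.43, against 0.063 and 0.040 for all genes. Fdps, the farnesyl diphosphate synthase, was not called, at 0.27 ± 0.13 without T3 (adjusted p = 0.0557) and 0.034 ± 0.12 with T3. The rising genes ran through most of the pathway: Hmgcs1, Mvk, Pmvk, Mvd, Idi1, Fdft1, Lss, Cyp51, Msmo1, Hsd17b7 and Sc5d. The falling genes were Acat2, Sqle, Tm7sf2, Nsdhl, Ebp and Dhcr7, so enzymes next to each other in the pathway parted. The Tm7sf2 calls, -0.24 ± 0.10 with T3 and -0.25 ± 0.10 without, were lost without T3 replicate 2, 3 or 4, CHX+T3 replicate 1, 3 or 4, 6 h control replicate 1 or 2, or CHX replicate 3 or 4.

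Hsd17b7 rose most among the enzymes, with 69.9, 63.0, 73.6 and 75.7 CPM in CHX+T3, against 33.5, 28.9, 32.1 and 32.3 CPM in T3, and 54.3, 55.3, 65.1 and 62.0 CPM in CHX, against 26.0, 25.6, 25.3 and 27.9 CPM in controls. Its log2 change was 1.15 ± 0.089 with T3 (adjusted p = 2.66e-11) and 1.18 ± 0.091 without (adjusted p = 2.65e-11). Each CHX library had more than any library without CHX. Msmo1 encodes an oxidase that acts in the removal of methyl groups. It had 183, 167, 177 and 197 CPM in CHX+T3, against 97.7, 94.1, 90.1 and 105 CPM in T3. In CHX it had 164, 160.0, 196 and 190.0 CPM, against 86.4, 71.9, 77.8 and 98.7 CPM in controls. That was a log2 change of 0.91 ± 0.087 and 1.09 ± 0.087, again without overlap.

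Fdft1, the squalene synthase that commits carbon to sterols, had 106, 101, 93.8 and 113 CPM in CHX+T3, against 60.0, 67.0, 58.9 and 61.2 CPM in T3, and 105, 103, 111 and 111 CPM in CHX, against 59.2, 54.5, 55.2 and 69.0 CPM in controls. Its log2 change was 0.75 ± 0.075 and 0.86 ± 0.076. Of its 50-base stretches 26.5% also occur in other transcripts, mostly of Ctsb on the opposite strand, which libraries without strand cannot separate. Lss, which closes squalene epoxide into lanosterol, had 129, 122, 141 and 137 CPM in CHX+T3, against 89.5, 75.2, 87.7 and 91.2 CPM in T3, and 113, 119.8, 139.5 and 132 CPM in CHX, against 74.1, 66.2, 69.0 and 76.8 CPM in controls. Its log2 change was 0.62 ± 0.082 and 0.82 ± 0.083, and both pairs of groups stood apart.

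Sqle, the squalene epoxidase between Fdft1 and Lss (chromosome 15, 59315077 to 59331192), fell more than any other member. It had 54.1, 52.8, 58.7 and 55.6 CPM in CHX+T3, against 231, 236, 236 and 224 CPM in T3. Without T3 it had 50.7, 47.4, 56.3 and 52.7 CPM in CHX, against 216, 203, 221 and 233 CPM in controls. That was 4.19-fold lower with T3 and 4.21-fold lower without, with adjusted p of 2.91e-19 and 2.55e-19. The enzymes on either side of Sqle rose in the same libraries.

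Acat2, the thiolase that starts the pathway, had 23.6, 22.2, 22.9 and 27.2 CPM in CHX+T3, against 37.7, 44.6, 39.3 and 42.9 CPM in T3, and 21.6, 22.2, 23.2 and 24.1 CPM in CHX, against 37.6, 35.6, 31.7 and 44.0 CPM in controls, log2 changes of -0.78 ± 0.094 and -0.71 ± 0.095. It shares 39.1% of its 50-base stretches with other transcripts, mainly of Acat3 and Tcp1, so its level is uncertain. Dhcr7, the reductase of the last step of one branch, had 32.1, 30.1, 32.0 and 33.8 CPM in CHX+T3, against 41.9, 42.5, 39.1 and 41.2 CPM in T3, and 31.0, 30.3, 28.9 and 31.4 CPM in CHX, against 38.3, 43.6, 37.2 and 39.7 CPM in controls. Ebp had 12.3, 11.4, 9.24 and 11.5 CPM in CHX+T3, against 12.7, 15.4, 15.6 and 13.4 CPM in T3, and 11.2, 12.9, 11.7 and 9.71 CPM in CHX, against 17.6, 16.2, 16.4 and 19.2 CPM in controls. Nsdhl, a dehydrogenase that acts with Msmo1 and Hsd17b7, had 53.5, 51.8, 47.4 and 58.5 CPM in CHX+T3, against 65.8, 74.2, 71.3 and 75.7 CPM in T3, and 54.5, 50.1, 57.3 and 54.0 CPM in CHX, against 62.4, 60.1, 60.3 and 70.7 CPM in controls, log2 changes of -0.44 ± 0.068 and -0.23 ± 0.068. For Acat2, Dhcr7, Ebp and Nsdhl the CHX groups lay below the groups without CHX, with changes of -0.36 and -0.38 for Dhcr7 and -0.36 and -0.61 for Ebp on the log2 scale. Ebp with T3 was not called without CHX+T3 replicate 3 (-0.28, adjusted p = 0.0503), and with lane as a covariate its change was -0.066 (adjusted p = 0.816).

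**Figure D4:**
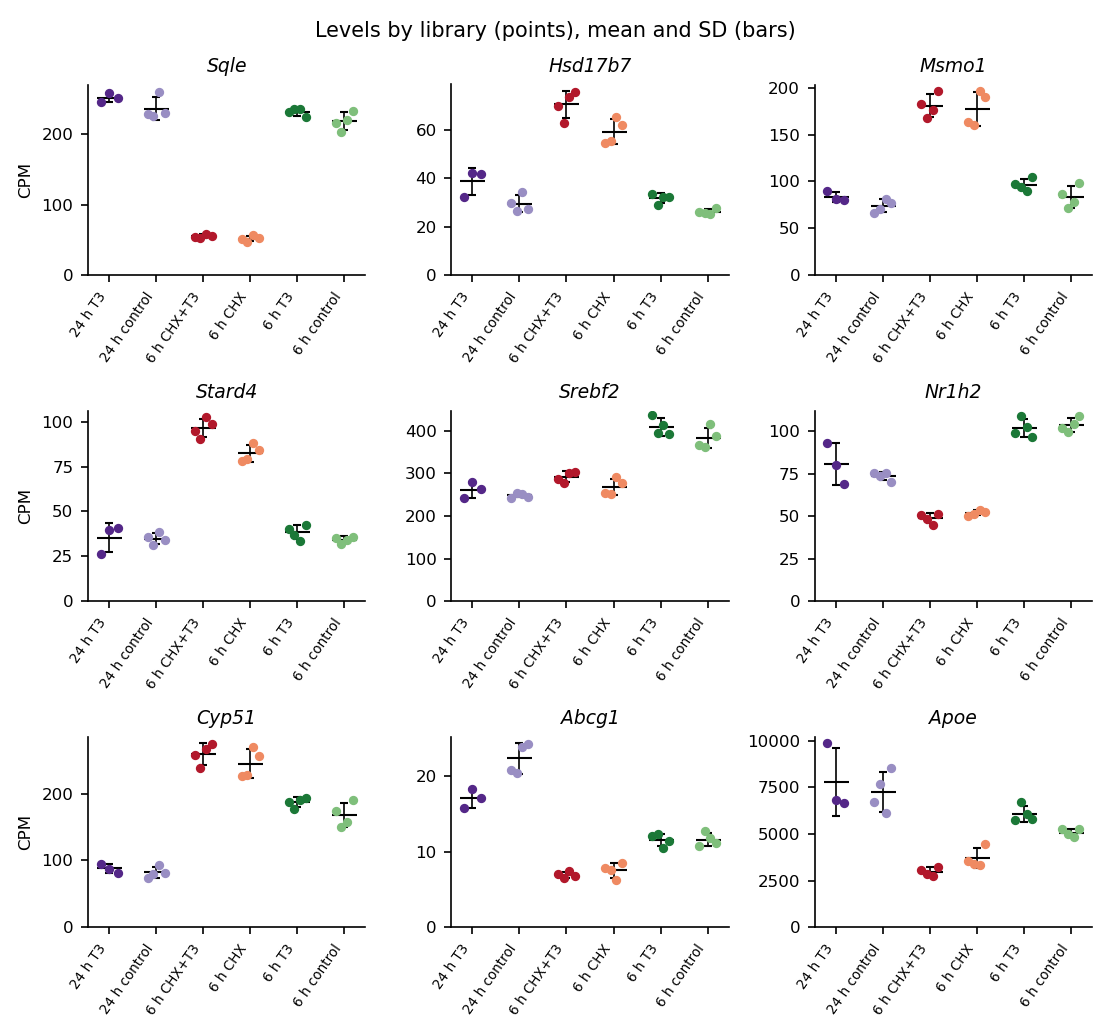
CPM of 9 members in each library (points), with group mean and SD (bars), in the 6 groups; every y axis starts at 0. Sqle lies between 47.4 and 58.7 CPM in the 8 CHX libraries and at 203 CPM or more in the other 15, while Hsd17b7, Msmo1 and Stard4 are highest in the CHX groups and Cyp51 is lowest at 24 h.

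Of the 7 regulators, 4 fell and 3 rose under CHX with T3, and 4 fell and 2 rose without. Nr1h2 had 50.7, 48.4, 44.9 and 51.5 CPM in CHX+T3, against 99.2, 109, 102 and 96.3 CPM in T3, and 50.2, 51.5, 53.9 and 52.4 CPM in CHX, against 102, 99.3, 104 and 109 CPM in controls. The groups stood apart, and it was 2.08-fold lower with T3 and 1.99-fold lower without. Nr1h3 ran the other way and was higher, with 2.22, 1.52, 1.51 and 1.83 CPM in CHX+T3, against 1.28, 1.57, 0.827 and 1.15 CPM in T3, and 2.73, 2.53, 2.03 and 3.13 CPM in CHX, against 1.42, 1.2526, 1.69 and 1.59 CPM in controls. Its level was low throughout, the groups overlapped with T3, and the call with T3 (0.54 ± 0.22 (SE), adjusted p = 0.0317) held in 9 of 17 alternatives. It was lost without T3 replicate 3 (0.113) or 4 (0.0651), or CHX+T3 replicate 1 (0.111) or 4 (0.0622).

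Srebf2 had 287, 278, 302 and 304 CPM in CHX+T3, against 438, 395, 413 and 392 CPM in T3, and 254, 251, 291 and 278 CPM in CHX, against 367, 362, 415 and 389 CPM in controls. Its log2 change was -0.48 ± 0.058 and -0.51 ± 0.058, so the gene for the main activator of synthesis fell in the libraries where 11 enzyme genes rose. Scap, the escort, had 147, 152, 158 and 147 CPM in CHX+T3, against 222, 215, 213 and 199 CPM in T3, and 148, 146, 147 and 144 CPM in CHX, against 209.8, 224, 247 and 215 CPM in controls. Insig2, the second Insig, had 38.9, 40.5, 40.2 and 35.0 CPM in CHX+T3, against 53.7, 59.2, 58.5 and 57.2 CPM in T3, and 39.2, 37.8, 40.8 and 41.8 CPM in CHX, against 57.0, 53.6, 53.7 and 56.2 CPM in controls. Scap and Insig2 fell without overlap in both comparisons.

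Insig1 rose under CHX, by 0.59 ± 0.072 with T3 (adjusted p = 8.14e-08) and by 0.19 ± 0.072 without (adjusted p = 0.0263). The call without T3 held in 10 of 17 alternatives and was lost when a trend with gene length and GC content was removed (change 0.030). It was also lost without 6 h control replicate 1 (0.0549) or 3 (0.0631) or CHX replicate 3 (0.156). Srebf1 had 257, 279, 252 and 261 CPM in CHX+T3, against 217, 218, 205 and 199.6 CPM in T3, a rise of 0.32 ± 0.055. Without T3 it had 250.3, 259.8, 259 and 241 CPM in CHX, against 229.6, 236, 268 and 232 CPM in controls, a change of 0.063 ± 0.055 that was not called. The difference between these CHX effects on Srebf1, 0.26 ± 0.077, was not called by edgeR (adjusted p = 0.0957) and was called by DESeq2 (0.27, adjusted p = 0.022) and with length and GC trends removed (0.29, 0.00886).

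In uptake and transport, Stard4 rose more than any other member, with 94.9, 90.6, 102 and 98.7 CPM in CHX+T3, against 40.1, 37.1, 33.5 and 42.6 CPM in T3, and 77.9, 79.1, 88.0 and 84.3 CPM in CHX, against 35.1, 31.8, 34.1 and 35.9 CPM in controls. It was 2.52-fold higher with T3 and 2.41-fold higher without. Npc2, which hands cholesterol to Npc1 in the lysosome, had 207, 206, 188 and 217 CPM in CHX+T3, against 325, 377, 338 and 337 CPM in T3, and 224, 216, 214 and 215 CPM in CHX, against 354, 347, 327 and 380.0 CPM in controls. Npc1 had 150.2, 156, 173 and 157 CPM in CHX+T3, against 244, 207, 226 and 225 CPM in T3, and 161, 154, 151 and 159 CPM in CHX, against 233, 241, 261 and 238 CPM in controls. The lysosomal pair fell without overlap, with changes for Npc2 of -0.75 and -0.69 and for Npc1 of -0.50 and -0.64 on the log2 scale. Mylip, itself a liver X receptor target, rose at a low level: it had 3.53, 3.57, 3.84 and 4.17 CPM in CHX+T3, against 2.56, 2.22, 3.01 and 2.56 CPM in T3, and 4.66, 3.02, 5.18 and 4.75 CPM in CHX, against 2.72, 1.67, 2.91 and 3.18 CPM in controls.

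Of the 4 efflux genes, 3 fell under CHX with T3 and without: Abcg1, Apoe and Abca1. Abcg1 had 6.99, 6.44, 7.46 and 6.71 CPM in CHX+T3, against 12.0, 12.4, 10.5 and 11.4 CPM in T3, and 7.79, 7.59, 6.19 and 8.53 CPM in CHX, against 10.8, 12.7, 11.8 and 11.1 CPM in controls, with log2 changes of -0.75 ± 0.099 and -0.62 ± 0.098. Apoe changed by -1.03 ± 0.11 with T3 (adjusted p = 1.56e-08) and by -0.46 ± 0.11 without (adjusted p = 8.36e-04), without overlap in the libraries given above. Abca1 had 1440.5, 1356, 1761 and 1491 CPM in CHX+T3, against 2139.7, 1569.9, 1922 and 2007 CPM in T3, a change of -0.34 ± 0.12 with overlapping groups, not called without T3 replicate 1 (adjusted p = 0.0525). Without T3 it had 1136, 1136, 1243 and 1173 CPM in CHX, against 1632, 1813, 1860.2 and 1569 CPM in controls, a change of -0.55 ± 0.12 without overlap. Cyp46a1, which turns brain cholesterol into an oxysterol that leaves the brain, had 20.9, 22.5, 21.7 and 25.9 CPM in CHX, against 19.3, 20.3, 20.3 and 18.8 CPM in controls, a rise of 0.21 ± 0.076. The Cyp46a1 call held in 11 of 17 alternatives and was lost without CHX replicate 4 (0.14, adjusted p = 0.106), with DESeq2 (0.0698), RLE factors (0.0591), lane as a covariate (0.0937), the compared groups only (0.101), and without both 24 h T3 replicate 1 and CHX replicate 4 (0.0529).

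Markers of cell types moved in the same libraries: summed astrocyte markers were 13109 to 14101 CPM in CHX+T3 and 20418 to 21404 CPM in T3, and 13753 to 15442 CPM in CHX and 19535 to 22021 CPM in controls. Of 13 microglial markers 10 were called lower with T3 and 5 without, where 31% and 30.6% of all genes were. The microglial sum was 42.0 to 49.4 CPM in CHX+T3 and 85.4 to 97.4 CPM in T3, and 49.2 to 73.3 CPM in CHX and 70.2 to 89.4 CPM in controls. The oligodendrocyte lineage markers summed to 533 to 565 CPM in CHX+T3 and 873 to 957 CPM in T3, and 554 to 618 CPM in CHX and 902 to 1018 CPM in controls; in bulk RNA fewer cells of a type and less RNA per cell cannot be told apart, and their part in these changes was not tested. Within lane 5, that is without CHX replicate 4, CHX against control called 29 members, 15 higher and 14 lower, with -2.08 for Sqle, 1.15 for Hsd17b7, 1.26 for Stard4 and -0.53 for Srebf2. Of all genes 10454 of 16057 were called in that fit. All CHX+T3 libraries were on lane 6 and all 6 h T3 libraries on lane 5, so treatment and lane cannot be told apart in that comparison by itself. With lane as a covariate 23 members were called there, and 8 lost their call: Hmgcs1 (0.18), Pmvk (0.34), Idi1 (0.61), Tm7sf2 (-0.11), Ebp (-0.066), Nr1h3 (0.18), Mylip (0.40) and Abca1 (-0.34, in log2 change). Calls over all 16087 genes also dropped in that fit, to 7589 from 10830. Its term between lanes 5 and 6 rests only on CHX replicate 4 against the other CHX libraries.

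Between 24 h and 6 h the share of members called was close to that of all genes, and more of the called synthesis genes were lower than higher at 24 h. In controls 20 of 33 members were called, 6 higher and 14 lower at 24 h, where 56.6% of all genes were called, 28.2% higher and 28.4% lower. With T3, 20 were called, 7 higher and 13 lower, where 57.6% of all genes were called, 29.3% higher and 28.2% lower. Groups did not overlap for 19 members in controls, 6 higher and 13 lower, where 51.1% of all genes did not, 24.8% higher and 26.3% lower. With T3 they did not overlap for 18 members, 6 higher and 12 lower, where 51.1% of all genes did not, 25.4% higher and 25.7% lower. In both comparisons 19 were called with the same direction, 6 higher and 13 lower. All 24 h libraries were on lanes 6 and 7 and all 6 h libraries of these groups on lane 5, so time and lane cannot be told apart; the plot of time effects shows the values. A term for lane in the model rests, between lanes 5 and 6, only on CHX replicate 4 against the other CHX libraries. With this term 13 members were called with T3 and 13 in controls. Over all 16087 genes it left 5409 calls with T3 and 4414 in controls, against 9259 and 9105 without it. Calls lost with lane were those of Acat2, Fdps, Tm7sf2, Hsd17b7, Nr1h2, Nr1h3, Abcg1 and Apoe with T3, and of Acat2, Tm7sf2, Sc5d, Scap, Nr1h3, Apoe and Cyp46a1 in controls, while Ebp with T3 was called (0.56). Without 24 h T3 replicate 1, 24 were called with T3, 6 higher and 18 lower, where 8762 of 16285 genes were called.

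**Figure D5:**
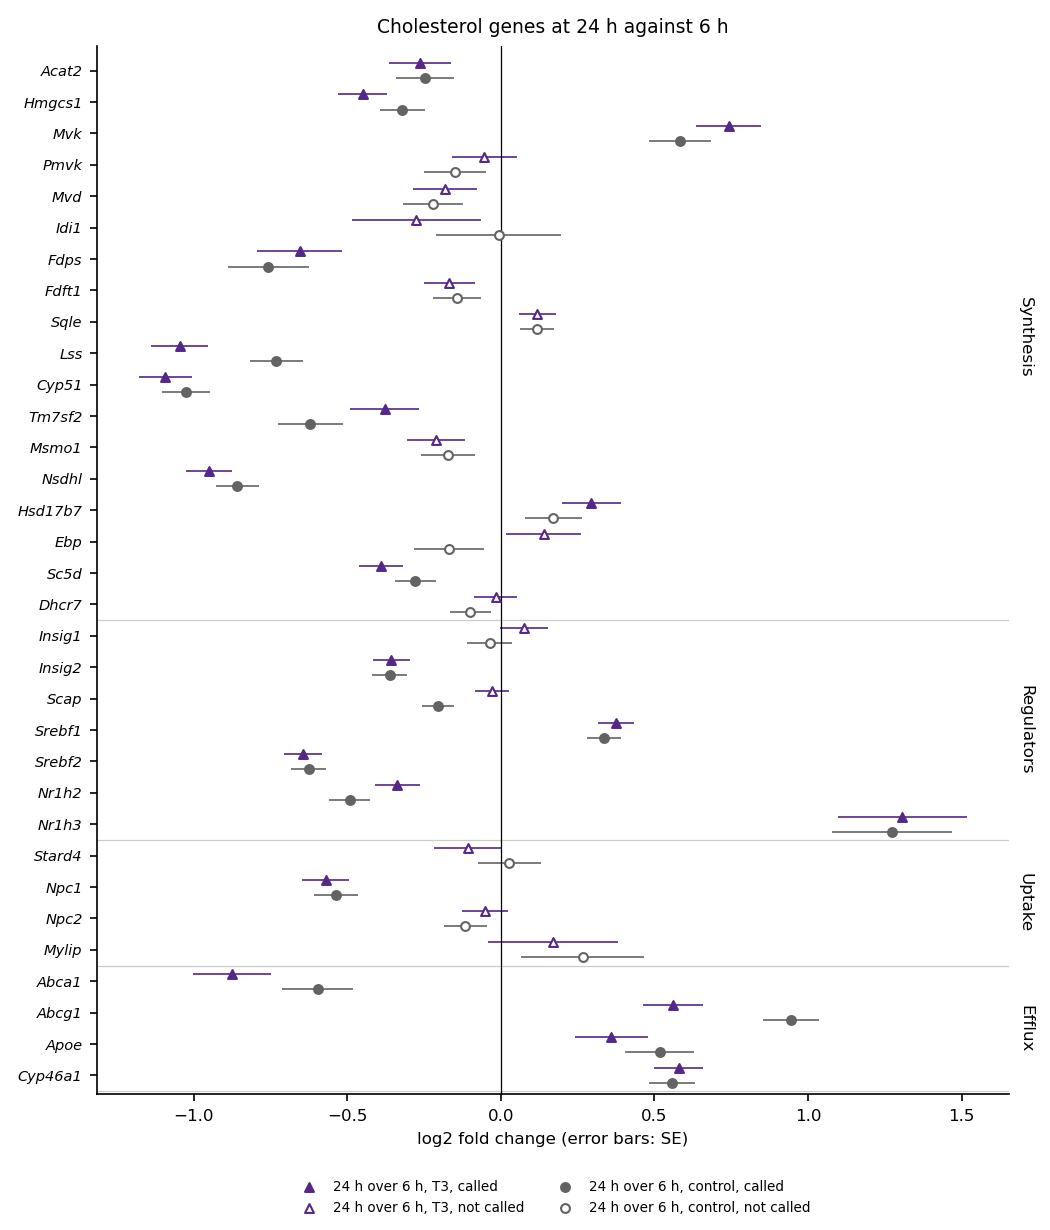
Log2 fold changes of the 33 members (x axis, error bars SE) at 24 h over 6 h with T3 and in controls, by role from top to bottom; filled symbols are called at an adjusted p under 0.05. Cyp51, Nsdhl, Lss and Srebf2 lie well below 0 in both comparisons, Nr1h3 and Abcg1 above 0.

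Of the 18 enzymes, 1 was higher and 8 were lower at 24 h in controls, and 2 were higher and 8 lower with T3, with medians of -0.20 and -0.24. Cyp51, the lanosterol demethylase, had 95.3, 87.0 and 81.7 CPM at 24 h T3, against 188, 178, 191 and 193 CPM at 6 h T3, and 74.2, 80.0, 93.5 and 81.9 CPM in 24 h controls, against 174, 150.1, 157 and 190.1 CPM in 6 h controls. It was 2.13-fold lower with T3 and 2.04-fold lower in controls. Nsdhl, a dehydrogenase of the next steps, had 39.2, 36.2 and 36.1 CPM at 24 h T3, against 65.8, 74.2, 71.3 and 75.7 CPM at 6 h T3, and 35.4, 34.6, 37.1 and 32.7 CPM in 24 h controls, against 62.4, 60.1, 60.3 and 70.7 CPM in 6 h controls. Hmgcs1 had 453, 485 and 491 CPM at 24 h T3, against 663, 583, 661 and 695 CPM at 6 h T3, and 406, 431, 498 and 414 CPM in 24 h controls, against 576, 526, 493 and 590.0 CPM in 6 h controls, changes of -0.45 ± 0.08 and -0.32 ± 0.074. The Cyp51 and Nsdhl groups stood apart, while those of Hmgcs1 overlapped in controls. Lss had 34.5, 44.2 and 45.6 CPM at 24 h T3 and 43.6, 43.6, 45.9 and 39.1 CPM in 24 h controls, below every 6 h library of its treatment. Its log2 change was -1.05 ± 0.093 with T3 and -0.73 ± 0.085 in controls.

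Sqle was not called with time: it had 246, 259 and 251 CPM at 24 h T3, against 231, 236, 236 and 224 CPM at 6 h T3, and 229, 226, 260.0 and 230.4 CPM in 24 h controls, against 216, 203, 221 and 233 CPM in 6 h controls. Tm7sf2, a sterol reductase, had 11.2, 7.95 and 9.26 CPM at 24 h T3, against 10.9, 13.1, 13.2 and 11.8 CPM at 6 h T3, and 8.18, 8.27, 8.78 and 8.62 CPM in 24 h controls, against 13.5, 14.1, 12.3 and 12.0 CPM in 6 h controls. Its log2 change was -0.38 with T3 and -0.62 in controls, with 24 h T3 replicate 1 in the 6 h range, and the call with T3 was lost without 24 h T3 replicate 2 (adjusted p = 0.0604). Mvk, mevalonate kinase, was the 1 enzyme higher in both, with 37.4, 28.7 and 26.5 CPM at 24 h T3, against 17.5, 21.1, 18.5 and 16.3 CPM at 6 h T3, and 28.9, 27.9, 29.7 and 30.3 CPM in 24 h controls, against 17.4, 20.5, 21.0 and 18.9 CPM in 6 h controls. Hsd17b7 was higher at 24 h with T3 (0.29 ± 0.096 (SE), adjusted p = 0.0115) and not called in controls (0.17 ± 0.093); the call was lost without 24 h T3 replicate 2 (0.0737) or 3 (0.0697).

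Srebf2 had 242, 279.6 and 264 CPM at 24 h T3, against 438, 395, 413 and 392 CPM at 6 h T3, and 243, 253, 252 and 245 CPM in 24 h controls, against 367, 362, 415 and 389 CPM in 6 h controls, changes of -0.64 ± 0.063 and -0.63 ± 0.058. Srebf1 had 289.6, 273 and 254 CPM at 24 h T3 and 310.2, 313, 290.3 and 306 CPM in 24 h controls and was higher than at 6 h, by 0.37 ± 0.059 with T3 and 0.34 ± 0.055 in controls. The SREBP genes thus differed in opposite directions with time. Nr1h3 had 2.96, 3.13 and 2.95 CPM at 24 h T3, against 1.28, 1.57, 0.827 and 1.15 CPM at 6 h T3, and 3.08, 4.49, 2.77 and 4.05 CPM in 24 h controls, against 1.42, 1.2526, 1.69 and 1.59 CPM in 6 h controls, 2.48-fold and 2.42-fold higher; with lane as a covariate neither Nr1h3 change was called (0.96, adjusted p = 0.0522, with T3 and 0.91, adjusted p = 0.0582, in controls). Nr1h2, with 93.0, 80.2 and 68.7 CPM at 24 h T3 and 75.2, 73.5, 75.5 and 70.3 CPM in 24 h controls, was lower than at 6 h, with changes of -0.34 ± 0.073 with T3 (-0.25 and not called with lane as a covariate, adjusted p = 0.108) and -0.49 ± 0.068 in controls. Insig2, with 44.3, 42.1 and 47.5 CPM at 24 h T3 and 42.5, 43.4, 41.2 and 44.4 CPM in 24 h controls, was lower too, with changes of -0.36 ± 0.061 and -0.36 ± 0.057. Scap had 193, 187, 204 and 194 CPM in 24 h controls, against 209.8, 224, 247 and 215 CPM in 6 h controls, a change of -0.21 ± 0.052, and was not called with T3 (-0.029 ± 0.056).

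Npc1 was the 1 transport gene called, lower with changes of -0.57 ± 0.077 with T3 and -0.54 ± 0.07 in controls, with 164, 176, 165 and 165 CPM in 24 h controls, against 233, 241, 261 and 238 CPM in 6 h controls. Of the 4 efflux genes Abca1 fell and the other 3 rose. Abca1 had 724, 1214 and 1185 CPM at 24 h T3, against 2139.7, 1569.9, 1922 and 2007 CPM at 6 h T3, and 1127, 1174, 1188 and 1058 CPM in 24 h controls, against 1632, 1813, 1860.2 and 1569 CPM in 6 h controls. Abcg1 rose by 0.56 ± 0.097 with T3 and 0.94 ± 0.091 in controls, so the 2 exporters went apart in the same libraries. With lane as a covariate the Abcg1 change with T3 was 0.32 and not called (adjusted p = 0.217). Apoe had 9882, 6848 and 6649.6 CPM at 24 h T3 and 6733, 7687, 6116 and 8522 CPM in 24 h controls, a rise of 0.36 ± 0.12 and 0.52 ± 0.11 over the 6 h groups. T3 replicate 1 was the highest library: without it the change with T3 was 0.15 and not called (adjusted p = 0.244). With lane as a term the Apoe change was 0.075 with T3 (adjusted p = 0.796) and 0.13 in controls (0.651), and not called. Summed microglial markers were 80.2 to 91.0 CPM at 24 h T3 and 69.3 to 149 CPM in 24 h controls, and 85.4 to 97.4 CPM at 6 h T3 and 70.2 to 89.4 CPM in 6 h controls. Astrocyte markers summed to 16622 to 19935 CPM at 24 h T3 and 20418 to 21404 CPM at 6 h T3, and to 18697 to 19774 CPM in 24 h controls and 19535 to 22021 CPM in 6 h controls. In controls at 24 h, 4 of 13 microglial markers were higher, 1 of 10 astrocyte markers was higher and 4 were lower, 6 of 9 tested neuronal markers were higher and 1 was lower, 4 of 8 of the oligodendrocyte lineage were higher and 2 lower, and 4 of 10 vascular and meningeal markers were higher and 1 lower. With T3 the counts higher and lower were 2 and 1 for microglia, 2 and 5 for astrocytes, 0 and 2 for neurons, 1 and 2 for the oligodendrocyte lineage, and 3 and 0 for vascular and meningeal markers. Of all genes 28.2% were called higher and 28.4% lower in controls, and 29.3% and 28.2% with T3. The part of these cell types in the time differences was not tested. Cyp46a1 had 32.0, 26.4 and 25.5 CPM at 24 h T3, against 17.995, 19.4, 18.6 and 18.7 CPM at 6 h T3, and 28.8, 28.3, 28.5 and 30.4 CPM in 24 h controls, against 19.3, 20.3, 20.3 and 18.8 CPM in 6 h controls. Its change in controls was 0.56 ± 0.075, and 0.30 and not called with lane as a covariate (adjusted p = 0.0771).

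A wider list of 47 further genes of the same roles, of which 46 passed the filter, was tested in the same fits. T3 at 6 h called 1 (3.77% of all genes), Stard3, a sterol carrier of late endosomes, lower with a log2 change of -0.32 ± 0.073 (adjusted p = 0.0106). T3 at 24 h called 2 (7.09% of all genes): Lcat, which esterifies cholesterol on lipoproteins, was higher by 0.53 ± 0.13, and Apod, an apolipoprotein with low and variable counts, was lower with a change of -3.44 ± 0.96 and overlapping groups. T3 under CHX (1.29% of all genes) called 0 with edgeR and 1 with DESeq2, and 6 had an unadjusted p under 0.05. CHX without T3 called 36, 13 higher and 23 lower, where 67.5% of all genes were called, 37% higher and 30.6% lower. CHX with T3 called 33, 11 higher and 22 lower, where 67.3% of all genes were called, 36.3% higher and 31% lower. Nceh1, a cholesterol ester hydrolase, rose by 0.93 with T3 and 0.78 without, and Cyp7b1, an oxysterol hydroxylase, by 1.14 and 1.17. Rnf145, a ubiquitin ligase of the sterol response, fell, with changes of -1.09 and -0.95, and so did Lipa, the lysosomal acid lipase, with -0.97 and -1.04. At 24 h against 6 h, 35 were called with T3, 7 higher and 28 lower, where 57.6% of all genes were called, and 31 in controls, 9 higher and 22 lower, where 56.6% were. Vldlr, a receptor for apolipoprotein E, fell, with changes of -1.48 with T3 and -1.33 in controls, and Dhdds, of the dolichol branch, rose by 0.48 and 0.43.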

How the data were processed

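RNA was sequenced as single 50-base reads in 23 libraries by a method without strand marking, per the labels' protocols. Per the submitters' processing notes, the tools included HTSeq, TopHat and Bowtie, edgeR, FastQC and bcl2fastq, and the build was GRCm38. Not given in the sources used here: versions, counting mode and annotation release. The deposited values are raw read counts per gene, 1 file per library, for 38293 genes. Another 5 closing lines name no gene and were left out. Of all counts in a file, these lines included, 3.75% to 5.81% were outside genes and 1.4% to 1.7% ambiguous. Those not uniquely aligned were 30.7% to 42.3%. Whether these count reads or alignments was not checked. Gene totals were 13843040 to 22997873 counts. Overlapping and antisense genes cannot be told apart in such counts. Of the identifiers, 36345 were found in a GRCm38 annotation (GENCODE).

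Counts were fitted with edgeR 4.0.16 (R 4.3.3, limma 3.58.1): filterByExpr with a minimum count of 10 left 16087 genes, with TMM factors, 1 mean per group over all 23 libraries, 17 residual degrees of freedom and quasi-likelihood tests. P-values were adjusted by Benjamini-Hochberg over all genes tested, with a threshold of 0.05. CPM values are counts scaled to the TMM-adjusted library size; a log2 fold change is given ± SE. Groups do not overlap where every library of one lies above every library of the other. The code was tested on simulated data. Replicate numbers and letters did not clearly pair libraries across groups. Correlations of deviations from the group means were -0.28 to 0.13 for the same number and -0.26 to 0.20 for the same letter. For the same number they were all positive but small for T3 under CHX (0.018 to 0.084) and CHX without T3 (0.0057 to 0.083). In no comparison were they above 0.1 for every pair, so the main fit used no block. No pair of replicates agreed within counting noise (chi-square per degree of freedom 1.73 to 38.5).

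Values per library are given for called members, up to the 4 smallest adjusted p per role and direction, and for up to 2 per role where none was called; of the wider list up to 3 called genes per direction were named. The members and lists were chosen with earlier results of these data known. Some genes of the pathway are not reported here. Alternatives tried were DESeq2 1.42.0, RLE factors, no filter, lane as a covariate, replicate blocks, removal of length and GC trends, fits of the compared groups alone, and leaving out libraries.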

Additional observations from a re-analysis of the deposited data

Results flagged for a closer look

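Sqle in replicate 3 of 24 h control stood above the rest of its group, at 260.01 CPM, where the other 3 libraries had 226.48 to 230.44 CPM. Npc1 in replicate 2 of 24 h control had 176.27 CPM, where the others had 163.89 to 165.03 CPM. These were 2 of 165 groups of 4 libraries examined for a sample far from the others, and chance alone flags about 1 group in 20. The T3 effect on Insig1 differed by 0.41 on the log2 scale under CHX from that without CHX (adjusted p = 0.0471 in edgeR). It was higher in 4 of 4 CHX+T3 libraries than in all CHX libraries, and the difference did not pass in 16 of 25 alternatives.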

How the results depend on the processing

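No member changed direction while called in any alternative. Counts of called members that moved by over 1.5 times were as follows, with the calls over all genes tested in that fit in parentheses. For T3 at 6 h the main fit called 2 (606). There were 4 (760) with the replicate block, 5 (764) with the block by letter and 4 (990) with length and GC trends removed. There were 6 (1191) without 24 h T3 replicate 1 and CHX replicate 4, and 4 (814) with the compared groups only. For T3 at 24 h the main fit called 2 (1140) and the compared groups alone gave 0 (401). For T3 under CHX the main fit called 1 (208). There were 3 (660) with lane, 3 (352) with length and GC trends removed, 4 (407) with compared groups only and 2 (343) with DESeq2. For the difference of T3 effects with and without CHX the main fit called 1 (196). There were 2 (295) with no filter, 2 (966) with lane, 2 (381) with the replicate block and 2 (368) by letter. There were 3 (602) with length and GC trends removed, 2 (497) with compared groups only and 3 (514) with DESeq2. For 24 h against 6 h lane as a covariate gave 13 (5409) with T3 and 13 (4414) in controls, against 20 (9259) and 20 (9105). The cause was not tested. Leaving out 1 library at a time gave 0 to 4 members for T3 at 6 h, 1 to 3 at 24 h, 0 to 2 under CHX, 29 to 31 for CHX with T3, 29 to 32 for CHX without T3, 17 to 24 for time with T3, 19 to 22 for time in controls, 0 to 1 for the difference by CHX and 0 to 0 for the difference by time. Over all genes, in the same order, these fits called 349 to 676, 810 to 1486, 138 to 252, 10320 to 10445, 10426 to 10573, 8620 to 9195, 8396 to 8771, 30 to 334 and 69 to 350. With lane as a covariate 23 (7589) were called for CHX with T3, 11 higher and 12 lower, against 31 (10830). The replicate numbers share only a number, so the block was tried as an alternative and no lost call is read as a weaker effect. Depth limits Nr1h3, Idi1 and Mylip most.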
